A study of Homo sapiens with 12 samples.

Results

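Genes whose transcript level moved in opposite directions in 2 gastric cancer lines after cantharidin sodium were described. Members were chosen by the sign of a measured value: they are the tested genes whose fitted log2 fold change, treated against untreated, was below 0 in one line and above 0 in the other. They number 10439 of 20280 tested genes, or 51.5%, from a count table of 32269 identifiers. In 5360 members the change was negative in AGS and positive in MKN1, and in 5079 it was positive in AGS and negative in MKN1. The signs come from the same libraries as the values below, so fold changes within a line, and the difference between lines, are a description. Where a gene is said below to pass, its adjusted p in the fit over all tested genes was under 0.05; such calls sort the members by size against spread, and are not independent evidence that the signs are opposed. Sign alone has no size: TEAD1 counted as a member with 0.61 in AGS and −2.8e-05 in MKN1, and ARPC4 with −0.60 and 0.00012. FARSB (0.56 and 0.00047) and PSMC5 (−0.58 and −0.00069) lay just outside.

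The series holds 12 RNA libraries of human cell lines, 3 for each of 4 groups that its design text calls biological replicates. AGS is described in the labels as a gastric adenocarcinoma epithelial line and MKN1 as an adenosquamous carcinoma line of the stomach. Both are labelled WT for genotype, and each was left untreated or exposed to cantharidin sodium. The sources used here state neither dose nor duration, and no vehicle for the untreated cells. Each arm of the comparison is therefore a single line, and what differs between AGS and MKN1 cannot be told apart from what differs between adenocarcinoma and adenosquamous carcinoma.

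Cantharidin is the vesicant of blister beetles and inhibits the serine/threonine phosphatases PP2A and PP1, enzymes that take phosphate off many signalling proteins. Pathways under phosphorylation control include the Hippo cascade, which restrains the coactivators YAP and TAZ, the ERK cascade, and the SREBP factors that drive sterol and fatty acid synthesis. Loss of sterol in the endoplasmic reticulum releases SREBP, which then raises transcription of the enzymes from acetyl-CoA to cholesterol.

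Totals ran from 28604966 to 51604215 counts per library, and mitochondrially encoded genes took 4.42% to 9.65% of them. One library stood apart. On the first principal component of the MKN1 libraries, untreated replicate 3 lay at 10, untreated replicates 1 and 2 at −41.6 and −41.8, and the treated libraries between 10.4 and 38.1. Its correlation with the other untreated MKN1 libraries was 0.9702 and 0.9722, against 0.9853 between those. Replicates of AGS differed less than those of MKN1: the SD of log2 CPM (read counts scaled to the size of each library) had a median of 0.14 in both AGS groups, 0.27 in untreated MKN1 and 0.26 in treated MKN1. Simple epithelial markers (6 genes) summed to 4120 to 6810 CPM, the keratins KRT8, KRT18 and KRT19 having the highest means in each group. The others were lower in MKN1 than in AGS. EPCAM, CDH1 and CLDN4 averaged 423, 20.5 and 222 CPM in untreated AGS and 21.5, 9.12 and 12.5 CPM in untreated MKN1. Squamous markers (5 genes) summed to 1610 to 3320 CPM in MKN1 and to 90.5 to 193 CPM in AGS, where TP63, KRT5, KRT6A and KRT14 each averaged below 1 CPM. In such bulk samples, fewer cells of a type and less RNA per cell cannot be told apart. Summed blood cell markers (6 of 8 in the table) went from 9.69 to 25.8 CPM in untreated AGS to 1.80 to 2.74 CPM in treated AGS, and from 44.3 to 62.0 CPM to 24.7 to 41.1 CPM in MKN1. In AGS the members of this sum went both ways: the haemoglobin gene HBB averaged 11.2 CPM untreated and 0.0252 CPM treated, and CD68 1.13 and 2.04 CPM. The part of these markers in the results was not tested.

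The difference between the lines, the MKN1 change minus the AGS change, passed an adjusted p of 0.05 in 3180 genes, a background of 15.7% of all tested genes (8.38% higher and 7.3% lower in MKN1 relative to AGS). Of these, 2831 (89.0%) had opposite signs and 349 the same sign. Changes of opposite sign add up in this difference, so a share above the 51.5% of all tested genes is built in. Among the 2831, AGS was lower and MKN1 higher in 1515 (7.47% of tested genes), and AGS higher and MKN1 lower in 1316 (6.49%). Scaling by library totals alone moved this split to 1852 and 1108. Most of these genes passed in a single line: 1585 in AGS only, 424 in MKN1 only, 520 in neither and 302 in both. Across all tested genes, 20.8% passed in AGS (9.21% higher, 11.6% lower) and 6.7% in MKN1 (2.8% higher, 3.9% lower).

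Genes that passed in each line, in opposite directions, are the most clearly opposed. They number 139 with AGS lower and MKN1 higher (0.685% of tested genes), with median log2 changes of −1.15 and 0.99. A further 163 had AGS higher and MKN1 lower (0.804%), with medians of 0.71 and −0.79. Which direction is larger depended on scaling, since library totals alone gave 173 and 114. Genes that passed in both lines numbered 423, so 302 of them (71.4%) were opposed and 121 shared a direction. Treated and untreated libraries did not overlap in either line in 136 of the 139 and in 159 of the 163, beside 6.79% of all tested genes with opposite signs and no overlap in both lines. Taken singly, 52.4% of tested genes had no overlap in AGS and 21.4% in MKN1. In the first set 63 genes, and in the second 25, had a change of at least 1 on the log2 scale in each line. The number rests on a spread shared by the lines. With each line fitted alone, MKN1 calls went from 1358 to 30 and the opposed pairs of calls from 302 to 11, of which 8 were among the 302. Without MKN1 untreated replicate 3 there were 633 (273 of them among the 302), and 181 and 104 without MKN1 untreated replicates 1 and 2. Leaving out any single AGS library gave 134 to 145, and any of the treated MKN1 libraries 204 to 266.

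**Figure D1:**
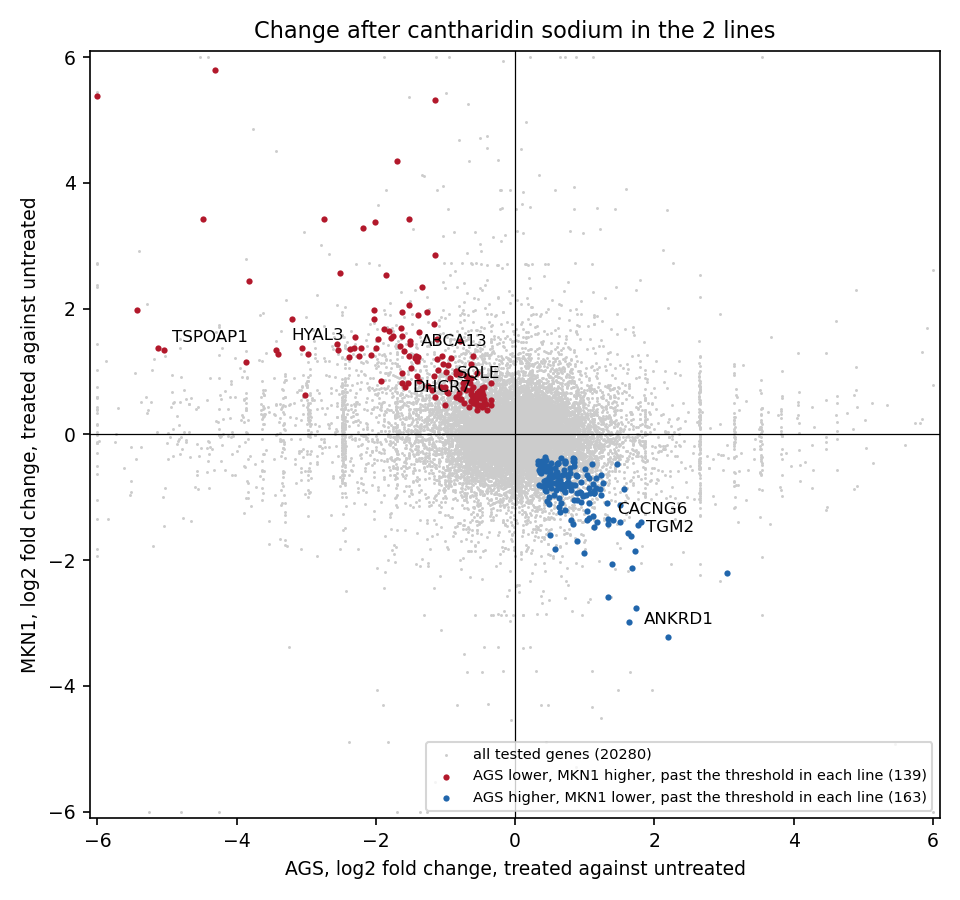
Each point is a tested gene, with its log2 fold change in AGS on the x axis and in MKN1 on the y axis, and values beyond the axis range drawn at its edge. The 139 red genes lie upper left and the 163 blue genes lower right; the grey cloud of all 20280 genes is centred near 0 in both lines.

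Among the 42 lists, sterol synthesis had the highest share of members with AGS lower, MKN1 higher and a difference past the threshold. Of 28 measured cholesterol biosynthesis and uptake genes, 22 had opposite signs (78.6%, against 51.5% of all genes), and 18 of these had a positive difference past the threshold, with 1 the other way. The list's median log2 change was −0.77 in AGS and 0.41 in MKN1, against −0.01 and 0.01 over all genes. Within AGS 19 members passed as lower and 1 as higher, whereas within MKN1 6 passed as higher and 1 as lower. The MKN1 median was 0.25 without untreated replicate 3, and 17 members then kept opposite signs with AGS lower and a difference past the threshold. Library by library, the list median relative to the untreated mean of its line was −0.62, −0.78 and −0.71 in treated AGS and 0.44, 0.22 and 0.42 in treated MKN1. Untreated libraries lay between −0.06 and 0.05 in AGS and between −0.08 and 0.09 in MKN1, so the treated and untreated medians did not overlap in either line.

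SQLE encodes squalene epoxidase, a rate-controlling step that commits squalene to the sterol ring. Its level was 128, 119 and 115 CPM in untreated AGS and 54.0, 55.2 and 73.1 CPM in treated AGS. In MKN1 it was 38.2, 34.8 and 39.0 CPM untreated and 74.8, 57.6 and 89.9 CPM treated. No treated library overlapped an untreated one, and the log2 changes were −0.99 (SE 0.16) and 0.99 (SE 0.16), a mirror image. Here and below, the SEs of both lines come from a spread shared by the lines. Treated AGS and treated MKN1 ended in one range, 54.0 to 89.9 CPM.

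DHCR7 (chromosome 11, 71428193 to 71452868, minus strand, GRCh38), the enzyme of the last step to cholesterol, read 122, 110.0 and 122 CPM in untreated AGS and 37.3, 34.6 and 42.0 CPM in treated AGS. In MKN1 it read 38.9, 43.6 and 40.3 CPM untreated and 72.3, 58.2 and 84.6 CPM treated. Its changes were −1.63 (SE 0.13) and 0.81 (SE 0.13). Every untreated AGS library lay above every untreated MKN1 library, and after treatment the order was reversed.

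FDFT1, squalene synthase, went from 162, 166 and 168 CPM to 98.7, 93.0 and 98.3 CPM in AGS. In MKN1 it went from 73.0, 76.4 and 75.2 CPM to 109, 103 and 119 CPM. The spread within each group was small beside these shifts, which were −0.77 (SE 0.09) and 0.56 (SE 0.09) on the log2 scale. MSMO1, a sterol C4 demethylase, changed by −0.63 (SE 0.15) in AGS and 0.64 (SE 0.15) in MKN1, and CYP51A1, lanosterol demethylase, by −0.56 and 0.61 (SE 0.10 each). For CYP51A1, 83.2% of exon bases are shared with another gene model, so its counts are uncertain. These 5 genes passed in both lines, with a spread shared by the lines. With each line fitted alone, only 2 of all tested genes passed in both lines with AGS lower and MKN1 higher.

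Upstream enzymes of the mevalonate branch were lower in AGS by a wide margin and showed smaller positive values in MKN1. MVK, mevalonate kinase, went from 19, 18.9 and 20.7 CPM to 6.97, 6.87 and 8.20 CPM in AGS. In MKN1 it went from 8.77, 10.0 and 11.3 CPM to 13.7, 13.4 and 16.3 CPM, without overlap, and the changes were −1.41 and 0.53 (SE 0.15 each). IDI1, isopentenyl diphosphate isomerase, had −1.55 in AGS and 0.52 in MKN1 (SE 0.20 each), and its untreated MKN1 values of 57.3, 48.3 and 28.6 CPM were lowest in replicate 3. HMGCS1, HMG-CoA synthase, read 137, 121 and 59.4 CPM in untreated MKN1 and 203, 106 and 137 CPM in treated MKN1, which overlap; its changes were −0.96 and 0.49 (SE 0.27 each).

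Regulators of the pathway did not move as one. INSIG1, which holds SREBP in the endoplasmic reticulum and is itself an SREBP target, was at 78.0, 71.8 and 75.4 CPM in untreated AGS and 26.0, 22.0 and 23.6 CPM in treated AGS. In MKN1 it was at 45.7, 47.2 and 39.3 CPM and then at 73.2, 37.8 and 79.3 CPM, with treated replicate 2 below the untreated libraries. SCAP, the escort protein of SREBP, was the single member the other way, with 0.13 in AGS and −0.47 in MKN1 (SE 0.09 each). SREBF2, which encodes an SREBP, had 0.22 and 0.05, the same sign in both lines.

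**Figure D2:**
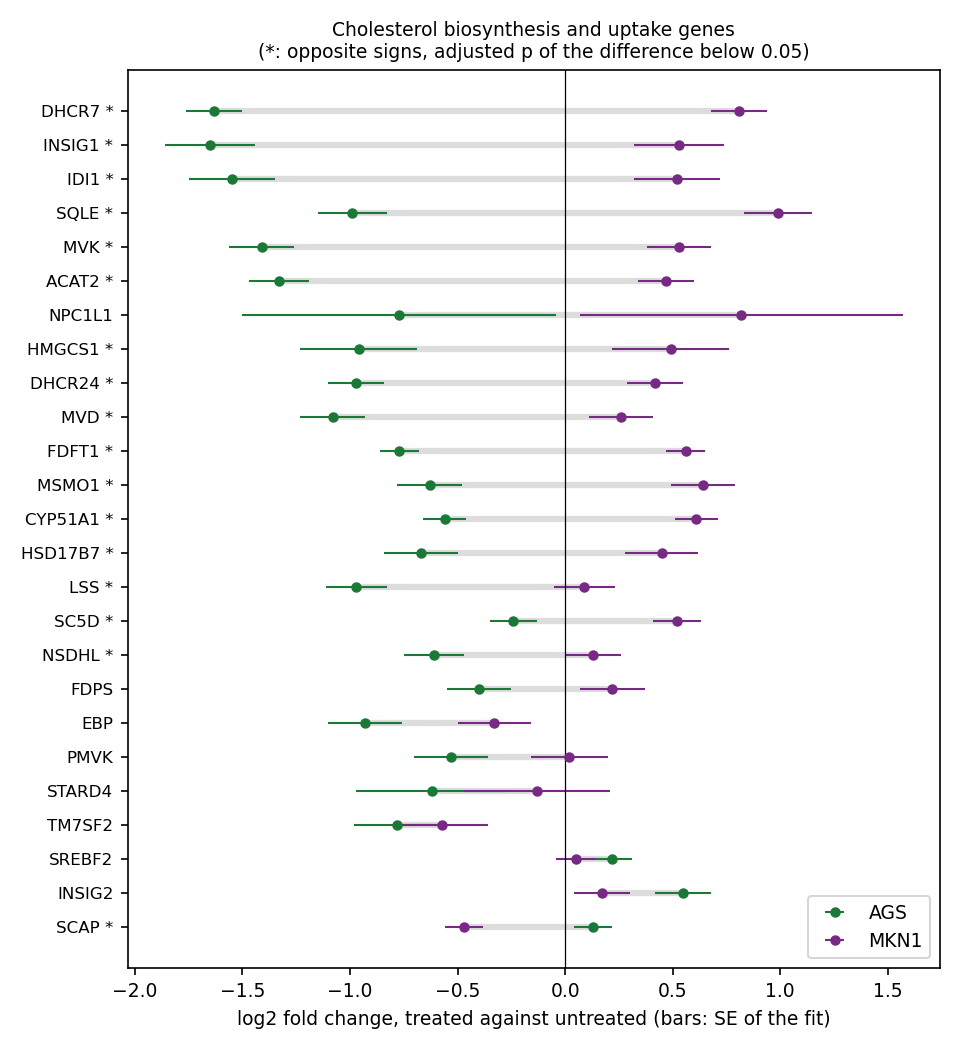
Log2 fold change of the cholesterol genes reported here in AGS (green) and MKN1 (purple) with the standard error of the fit, ordered by the difference between lines. In starred genes (opposite signs and a difference past the threshold) the AGS point lies left of 0 and the MKN1 point right of it, except in SCAP, where they are reversed.

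Promoter sequences of 3 sterol genes are shown because their genes moved together and hold repeated CCAAT boxes, the letters bound by NF-Y, a factor known to act beside SREBP. Each run is the 250 bases before the gene's start in RefSeq, build GRCh38.p14, written along the gene's strand, with CCAAT or its reverse complement in capitals. The windows are chr11:71448394-71448643 on the minus strand for DHCR7, chr12:109573544-109573793 on the plus strand for MVK, and chr4:165327419-165327668 on the plus strand for MSMO1.
DHCR7: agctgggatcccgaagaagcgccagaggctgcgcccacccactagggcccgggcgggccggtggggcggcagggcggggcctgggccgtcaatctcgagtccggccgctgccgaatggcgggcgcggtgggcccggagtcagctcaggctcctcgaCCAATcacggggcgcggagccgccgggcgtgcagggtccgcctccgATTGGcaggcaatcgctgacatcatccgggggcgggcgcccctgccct
MVK: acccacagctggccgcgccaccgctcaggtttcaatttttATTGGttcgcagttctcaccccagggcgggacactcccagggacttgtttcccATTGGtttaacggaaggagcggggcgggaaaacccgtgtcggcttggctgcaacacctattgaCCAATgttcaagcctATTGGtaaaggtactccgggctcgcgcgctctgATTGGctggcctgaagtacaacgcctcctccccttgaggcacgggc
MSMO1: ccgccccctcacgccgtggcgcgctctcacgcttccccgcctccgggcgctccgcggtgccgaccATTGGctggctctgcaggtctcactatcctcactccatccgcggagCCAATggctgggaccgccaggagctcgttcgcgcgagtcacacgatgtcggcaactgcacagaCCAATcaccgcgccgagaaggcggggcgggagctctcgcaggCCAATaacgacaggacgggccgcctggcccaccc
There were 2 matches in DHCR7, 5 in MVK and 4 in MSMO1, and these promoters were picked for display after the matches were seen. The DHCR7 window lies inside the GENCODE 29 span of the gene given above, so the annotations place its start differently. Of the 18 sterol genes with AGS lower and MKN1 higher, 12 matched the promoter table by symbol and 10 of those windows (83.3%) held CCAAT on either strand. The other measured sterol genes had it in 6 of 9 windows (66.7%), and all tested genes in 4500 of 13011 (34.6%). The difference between these shares was not tested, and a match is not a measured binding site.

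The fatty acid synthesis list did not share the sterol pattern as a whole: its median log2 change was 0.11 in AGS and 0.08 in MKN1, with a median difference of −0.23. Single members did have opposite signs. FASN, fatty acid synthase, went from 263, 257 and 285 CPM to 124, 110.0 and 129 CPM in AGS, and from 115, 136 and 119 CPM to 209, 143 and 209 CPM in MKN1. Its changes were −1.15 (SE 0.14) and 0.60 (SE 0.14), with no overlap in either line. ELOVL1, an elongase of very long chains, had −0.48 and 0.44 (SE 0.12 each), and both genes passed in each line. Of 21 measured fatty acid genes, 13 had opposite signs, 4 of them with AGS lower, MKN1 higher and a difference past the threshold. ACLY, which makes cytosolic acetyl-CoA, and LPIN1, a phosphatidate phosphatase, were the others, with differences of 0.97 (SE 0.19) and 1.13 (SE 0.18). FADS3, of the desaturase family, ran the other way with −0.95 (SE 0.17).

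The 12 top-ranked genes with AGS lower and MKN1 higher included SQLE and DHCR7, and the others had diverse roles. HYAL3, a hyaluronidase family gene (chromosome 3, 50292831 to 50299468, minus strand), read 10.8, 8.34 and 10.5 CPM in untreated AGS and 1.70, 2.04 and 2.21 CPM in treated AGS. MKN1 libraries read 4.15, 6.64 and 8.12 CPM untreated and 12.9, 14.2 and 21.9 CPM treated. The groups did not overlap, and the changes of −2.31 (SE 0.28) and 1.37 (SE 0.26) gave the highest rank in this direction.

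TSPOAP1 (chromosome 17, 58301228 to 58328760, minus strand), a binding partner of the mitochondrial translocator protein, fell to below 1 CPM in AGS, from 16.4, 14.2 and 13.2 CPM to 0.426, 0.516 and 0.364 CPM. In MKN1 it went from 1.53, 2.30 and 2.58 CPM to 3.58, 4.73 and 7.90 CPM. The log2 changes were −5.05 (SE 0.34) and 1.34 (SE 0.29), the widest difference of the 24 genes ranked by the smaller of their changes. Treated MKN1 replicate 3 was the highest treated library for both HYAL3 and TSPOAP1.

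PPP1R10 encodes a nuclear regulatory subunit of PP1, one of the phosphatases cantharidin inhibits. It averaged 164 ± 13.4 CPM (SD, n = 3) in untreated AGS and read 54.0, 57.0 and 58.3 CPM in treated AGS. The MKN1 libraries were at 56.8, 58.0 and 48.3 CPM and then at 77.6, 101 and 109 CPM, so no libraries overlapped. Its changes were −1.54 (SE 0.13) and 0.82 (SE 0.13). GDF11, a TGF-beta family ligand, had −1.16 (SE 0.18) and 0.92 (SE 0.17), PRDM11, a PR domain protein, −0.85 and 1.01, and ABCA13, an ABC transporter, −1.44 and 1.21 (SE 0.20 each). BIK, a BH3-only killer protein, had −0.85 (SE 0.23) and 0.96 (SE 0.24). GLCCI1, a glucocorticoid-induced gene, had −0.79 and 0.98 (SE 0.17 each). TMEM217 (−2.54 and 1.34) and the pseudogene ZSCAN12P1 (−1.62 and 0.97) complete the 12. Of these, TMEM217 and BIK passed in both lines in only 10 of the 22 alternative analyses. Their signs held in all 22, which their choice by libraries without overlap made likely beforehand.

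Some signalling feedback genes had AGS lower and MKN1 higher. DUSP8 and DUSP16, dual-specificity phosphatases of MAP kinases, passed in both lines, with −0.64 (SE 0.17) and 0.89 (SE 0.18) for DUSP8 and −0.55 (SE 0.11) and 0.47 (SE 0.12) for DUSP16. DUSP8 went from 24.4, 24.5 and 28.8 CPM to 16.1, 17 and 16.8 CPM in AGS and from 4.89, 4.49 and 6.56 CPM to 8.47, 9.26 and 11.9 CPM in MKN1. Of 23 ERK feedback genes, 10 had opposite signs (43.5%, against 51.5% of all genes) and 4 a difference past the threshold, DUSP10 and DUSP14 being the others, and none of these ran the other way. Of 25 AP-1 and immediate early genes, 17 had opposite signs, and 5 passed for the difference in this direction and 3 in the other, with a median difference of −0.05. FOS, an AP-1 subunit, had −0.52 and 0.66 (SE 0.15 each) and BTG2, an antiproliferative p53 target, −0.79 and 0.56 (SE 0.13 each). KLF6, KLF10 and CCN1 were the 3 with AGS higher. Among 28 p53 target genes, 14 had opposite signs, a share near the 51.5% of all genes. Of these, 7 had AGS lower and MKN1 higher and a difference past the threshold, with TP53I3, a quinone oxidoreductase, at −0.81 and 0.36 (SE 0.14 each), and 2 the reverse.

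In several lists the opposite signs came from an AGS change beside a MKN1 value near 0. Of 32 proteasome genes, 21 passed as lower in AGS and none as higher or lower in MKN1. Medians were −0.47 and −0.02, and 6 members counted as opposed with a difference past the threshold, PSMD2 (−0.60 and 0.20, SE 0.12 each) among them. Without MKN1 untreated replicate 3 the members with opposite signs went from 14 to 6 and the MKN1 median to −0.14. Of 23 endoplasmic reticulum chaperone genes, 15 had opposite signs, 7 of them with AGS lower and a difference past the threshold and 1 with the reverse. CALR, calreticulin, went from 1380, 1330 and 1440 CPM to 642, 633 and 723 CPM in AGS, while its MKN1 libraries overlapped (885, 920.0 and 856 CPM untreated, 858, 776 and 1170 CPM treated). Of 33 glycolysis and hypoxia genes, 18 had opposite signs, and the difference passed in 7 with AGS lower (GPI, ALDOA, TPI1, PGAM1, ENO1, PKM and LDHA, all glycolytic enzymes or lactate dehydrogenase) and in 3 with AGS higher. Those 3 were the glucose transporters SLC2A1 and SLC2A3 and the phosphofructokinase PFKL. SLC2A3 (0.55, SE 0.15, and −0.66, SE 0.16) and PFKL (0.35 and −0.80, SE 0.11 each) passed in both lines.

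With AGS higher and MKN1 lower, TGM2 was the steadiest gene. TGM2, tissue transglutaminase (chromosome 20, 38127387 to 38166578, minus strand), cross-links proteins and binds matrix and integrins. It read 36.8, 27.5 and 30.4 CPM in untreated AGS and 106, 108 and 107 CPM in treated AGS. In MKN1 it read 82.5, 97.8 and 114 CPM untreated and 31.9, 41.6 and 33.9 CPM treated. The lines exchanged levels: untreated AGS matched treated MKN1, and treated AGS matched untreated MKN1. The log2 changes were 1.76 (SE 0.15) and −1.45 (SE 0.15), and TGM2 passed in both lines in all 22 alternatives, including the fit of each line alone. Of the other measured transglutaminases, TGM4 was below 1 CPM in every library, so its opposite signs rest on few counts.

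ANKRD1 (chromosome 10, 90912096 to 90921276, minus strand), a muscle ankyrin repeat protein widely used as a readout of YAP and TAZ, had the largest difference among the 12 top-ranked genes in this direction. It read 48.8, 95.5 and 75.4 CPM in untreated AGS and averaged 244 ± 67.6 CPM (SD, n = 3) in treated AGS. Its MKN1 levels were 56.8, 54.2 and 11.8 CPM untreated and 5.19, 5.97 and 6.89 CPM treated. Untreated replicate 3 of MKN1 was far below its group but above the treated libraries. The changes were 1.73 (SE 0.44) and −2.76 (SE 0.47), and the MKN1 value without that library was −3.20.

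The same library weighed on other YAP and TAZ target genes. F3, tissue factor, read 934, 780.0 and 287 CPM in untreated MKN1 and 277, 346 and 310.0 CPM in treated MKN1, so replicate 3 lay within the treated range. In AGS it went from 17.7, 19.3 and 17.5 CPM to 31.8, 43.8 and 37.8 CPM, and its changes were 1.06 (SE 0.31) and −1.10 (SE 0.30). CCN2, a matricellular protein, read 418, 388 and 159 CPM untreated and averaged 158 ± 8.69 CPM (SD, n = 3) treated in MKN1, with changes of 1.95 (SE 0.44) in AGS and −1.03 (SE 0.42) in MKN1. DLC1, a GTPase-activating protein, had groups that did not overlap in either line, with 0.67 and −0.64 (SE 0.13 each). CCN1, the sister gene of CCN2, had 0.51 and −1.32 (SE 0.22 each), its AGS change not past the threshold.

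Of 26 measured YAP and TAZ targets, 15 had opposite signs (57.7%, against 51.5% of all genes). The difference passed in 10 with AGS higher and MKN1 lower (38.5% of the list, against 6.49% of all genes), and in none with the reverse. One of the 10 is TEAD1, whose MKN1 value is at 0. Another is IGFBP3, which was at or below 0.128 CPM in untreated AGS and at 0.749 to 1.64 CPM in treated AGS, so its AGS change rests on few counts. The list medians were 0.24 in AGS and −0.14 in MKN1. By library the treated medians were 0.20, 0.33 and 0.16 in AGS and −0.25, −0.20 and −0.14 in MKN1, all outside the range of the untreated libraries of their line. Without untreated replicate 3 of MKN1, 11 targets had this direction past the threshold.

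**Figure D3:**
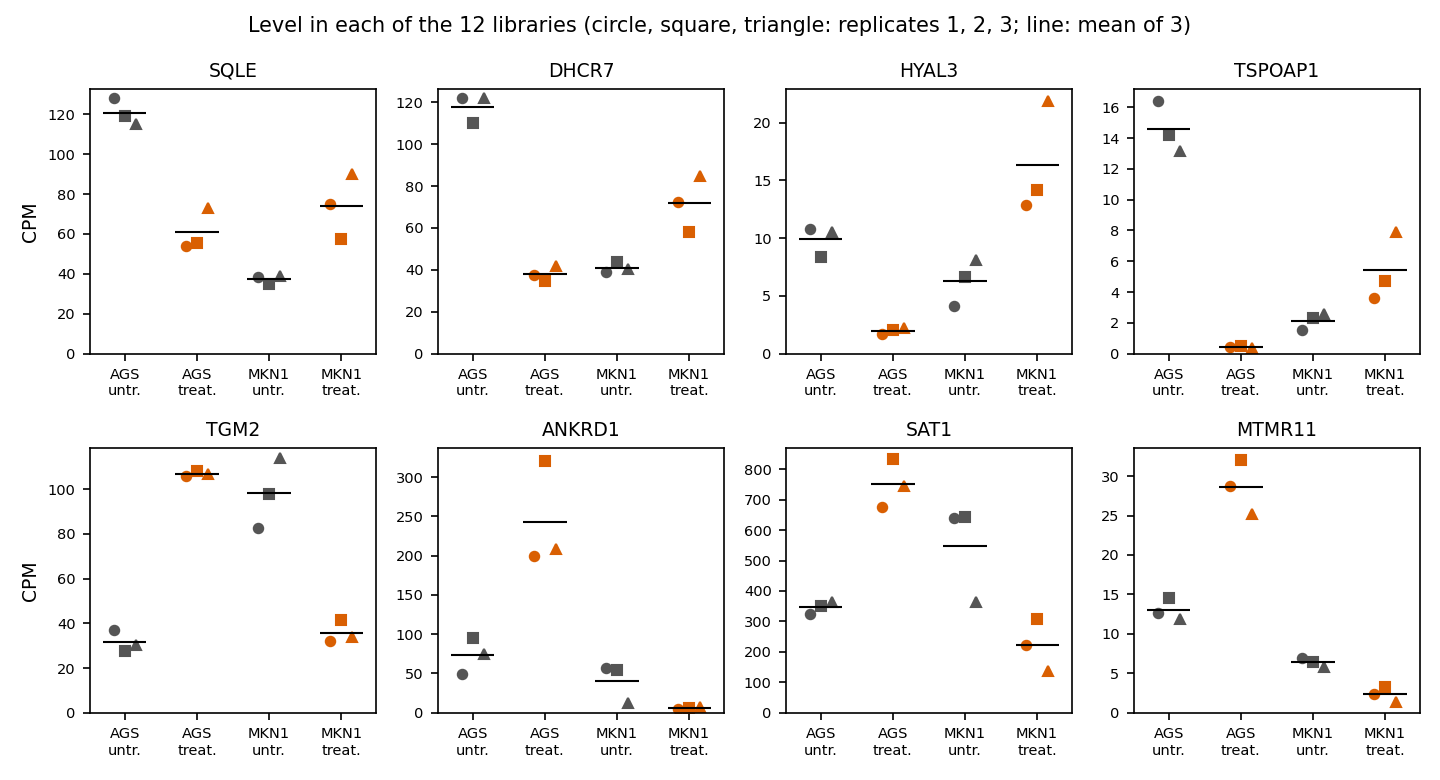
CPM of 8 genes in each of the 12 libraries, untreated in grey and treated in orange, with a line at the mean of 3. SQLE, DHCR7, HYAL3 and TSPOAP1 go down in AGS and up in MKN1; TGM2, ANKRD1, SAT1 and MTMR11 go up in AGS and down in MKN1, and the low triangle of untreated MKN1 in ANKRD1 and SAT1 is replicate 3.

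The promoter of ANKRD1 is shown because TEAD factors, the partners of YAP and TAZ on DNA, bind CATTCC. The run is chr10:90921088-90921337 on the minus strand, the 250 bases before the RefSeq start in GRCh38.p14, with CATTCC or its reverse complement in capitals.
ANKRD1: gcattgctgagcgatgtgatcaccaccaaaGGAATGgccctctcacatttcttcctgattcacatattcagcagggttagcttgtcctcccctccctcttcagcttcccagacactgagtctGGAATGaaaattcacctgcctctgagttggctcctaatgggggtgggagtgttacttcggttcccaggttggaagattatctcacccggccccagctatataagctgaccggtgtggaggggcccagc
It holds 2 matches, both on the opposite strand, starting 220 and 128 bases before the RefSeq start. The start of ANKRD1 in GENCODE 29 lies within this window. The match at 128 is inside the GENCODE span of the gene, so its place before the start depends on the annotation. Among the 10 opposed YAP and TAZ targets, 2 of the 6 windows found held the letters (33.3%), as did 4 of 12 windows (33.3%) of the other measured targets and 9.73% of those of all tested genes. The opposed targets and the others had the same share.

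Genes of cell adhesion and basement membrane were found in both directions. Of 30 integrin, laminin and basement membrane genes, 21 had opposite signs, and the difference passed in 8 with AGS higher and 3 with AGS lower. LAMB2, a laminin chain, went from 76.8, 81.1 and 81.0 CPM to 109, 129 and 109 CPM in AGS. In MKN1 it went from 154, 172 and 181 CPM to 109, 114 and 98.0 CPM, so that treated libraries of both lines shared a range. Its changes were 0.54 and −0.66 (SE 0.11 each). LAMA5 (0.60 and −0.60, SE 0.13 each), the perlecan gene HSPG2 (0.89 and −0.66, SE 0.15 each) and the collagen-binding ITGA1 (1.06 and −0.69, SE 0.18 each) also passed in both lines. ITGA2 had 1.12 and −0.89 (SE 0.44 each), and its untreated MKN1 values were 260.0, 179 and 43.8 CPM, with replicate 3 below every treated library. COL7A1, LAMA1 and NID1 were the 3 with AGS lower. RECK, a membrane-anchored inhibitor of matrix proteases, had 0.97 (SE 0.21) and −0.98 (SE 0.20).

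SAT1 (X chromosome, 23783173 to 23786226, plus strand) encodes the enzyme that acetylates spermidine and spermine for breakdown. It read 325, 350.0 and 363 CPM in untreated AGS and 677, 834 and 744 CPM in treated AGS. In MKN1 it read 639, 644 and 363 CPM untreated and 224, 307 and 137 CPM treated, with changes of 1.12 and −1.30 (SE 0.26 each). Replicate 3 was lowest in both MKN1 groups.

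MTMR11, a myotubularin family member, had 1.14 (SE 0.22) and −1.48 (SE 0.24), and CACNG6, a calcium channel gamma subunit, 1.34 and −1.34 (SE 0.26 each). SECTM1, a transmembrane and secreted immune ligand, had 1.32 (SE 0.19) and −1.09 (SE 0.18), and the proton-gated channel ASIC1 had 1.23 (SE 0.23) and −0.96 (SE 0.22). ERMP1, a metallopeptidase of the endoplasmic reticulum, PCYOX1L, PAQR8, a membrane progesterone receptor, and SMIM14 had AGS changes of 0.94 to 1.13 and MKN1 changes of −1.08 to −0.93. PAQR8 and ERMP1 passed in both lines in 8 and 9 of the 22 alternatives. All 24 named genes kept both signs in all 22, which their choice by libraries without overlap made likely beforehand.

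Noncoding hosts of small nucleolar RNAs gave the highest share with AGS higher and MKN1 lower. These SNHG transcripts are spliced, carry snoRNAs in their introns and are degraded by nonsense-mediated decay. Of 19 measured, 16 had opposite signs (84.2%, against 51.5% of all genes). A difference past the threshold was found in 9, all with AGS higher (47.4%, against 6.49% of all genes). GAS5 went from 86.9, 82.9 and 85.6 CPM to 175, 165 and 170.0 CPM in AGS, a change of 1.00 (SE 0.16). In MKN1 it read 201, 216 and 307 CPM and then 158, 226 and 186 CPM, groups that overlap, with −0.35 (SE 0.16). No SNHG gene passed in MKN1, and the list median there was −0.10, against 0.53 in AGS. The opposite signs of this list came from AGS calls beside MKN1 values that did not pass, and the number past the threshold for the difference was 6 with library totals and 7 without MKN1 untreated replicate 3.

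Of 34 interferon-stimulated genes, 19 had opposite signs (55.9%, against 51.5% of all genes). A difference past the threshold was found in 5 of them (14.7% of the list), each with AGS higher and MKN1 lower. Over all tested genes these shares were 6.49% in this direction and 7.47% in the reverse. By library, the list medians in MKN1 were 0.20, 0.31 and −0.55 untreated and −0.24, −0.25 and −1.15 treated. Untreated replicate 3 thus lay within the treated range. STAT2, the transcription factor of type I interferon signalling, passed in both lines, going from 53.2, 52.5 and 52 CPM to 74.0, 78.7 and 70.2 CPM in AGS and from 49.1, 47.6 and 49.9 CPM to 39.6, 26.8 and 29 CPM in MKN1. These are changes of 0.50 and −0.62 (SE 0.13 each) from nearly equal untreated levels. Of 19 MHC class I presentation genes, 9 had opposite signs (47.4%, against 51.5% of all genes). Among these, 5 had AGS higher and a difference past the threshold. They included the peptide-trimming ERAP1 (0.90, SE 0.14, and −0.28, SE 0.13) and NLRC5, the transactivator of class I genes (0.45, SE 0.09, and −0.27, SE 0.10). CALR and PDIA3, which are also chaperones, passed with the reverse. The splicing kinase CLK2 passed in both lines with 0.71 and −0.82 (SE 0.13 each).

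**Figure D4:**
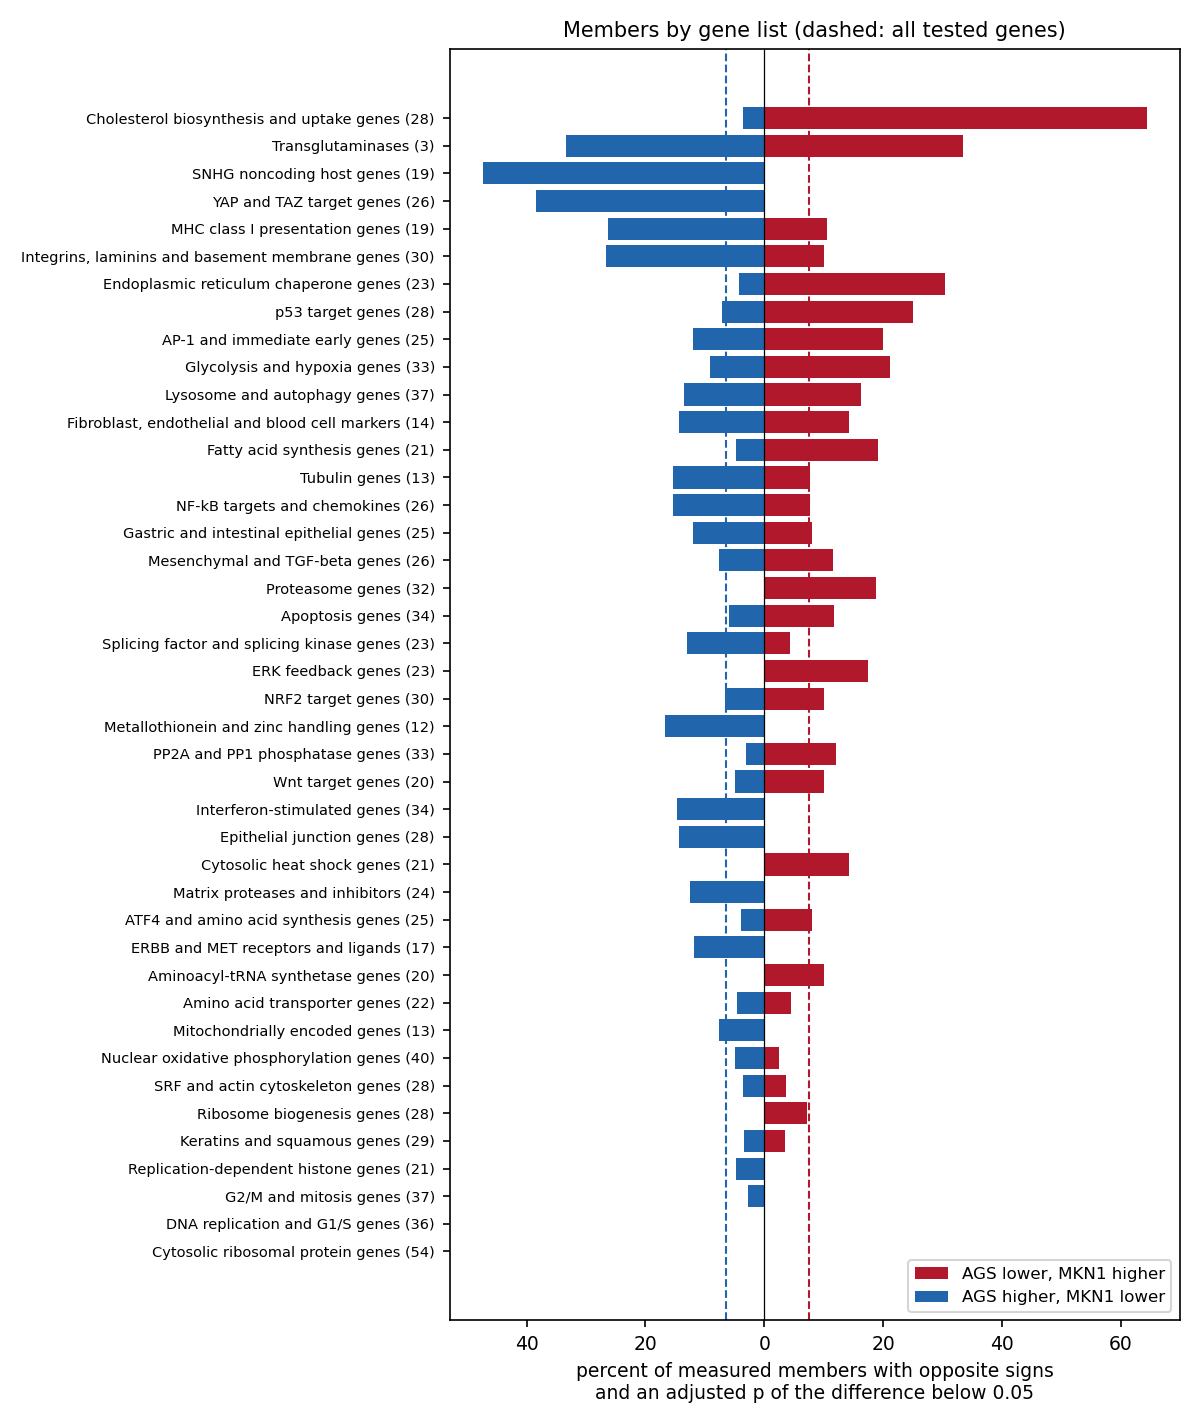
Share of the measured members of each of the 42 lists that had opposite signs and a difference past the threshold, to the right with AGS lower and MKN1 higher and to the left with the reverse; numbers in brackets are genes measured and dashed lines are the shares over all tested genes, 7.47% and 6.49%. Cholesterol genes extend farthest right, SNHG and YAP and TAZ genes farthest left, and no DNA replication or ribosomal protein gene is counted.

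Some lists held few or no opposed genes. Of 36 DNA replication genes, 8 had opposite signs (22.2%, against 51.5% of all genes). None of the 8 had a difference past the threshold, and the medians were −0.25 and −0.35. G2/M genes (5 of 37 opposite, 13.5%, with 1 past the threshold) had medians of −0.24 and −0.48. Cytosolic ribosomal protein genes (9 of 54 opposite, 16.7%, with none past it) had −0.21 and −0.22. PPP2CA (0.04 and 0.01, SE 0.12 each) and PPP2CB (0.02 and 0.04, SE 0.11 each) had the same sign in both lines. PPP1CC, a PP1 catalytic subunit, had −0.26 and 0.20 (SE 0.10 each) with a difference past the threshold. The remaining PP1 catalytic genes were at −0.64 and −0.06 for PPP1CA and at 0.24 and −0.01 for PPP1CB. Of 33 phosphatase genes, 18 had opposite signs (54.5%, against 51.5% of all genes). The difference passed in 4 with AGS lower and in 1 with AGS higher, PPP1R12B, a myosin phosphatase subunit (0.88 and −0.32, SE 0.16 each). Both directions together made up 15.2% of the list, beside 7.47% with AGS lower plus 6.49% with AGS higher over all tested genes. The phosphatase list was thus near all tested genes in both respects.

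**Figure D5:**
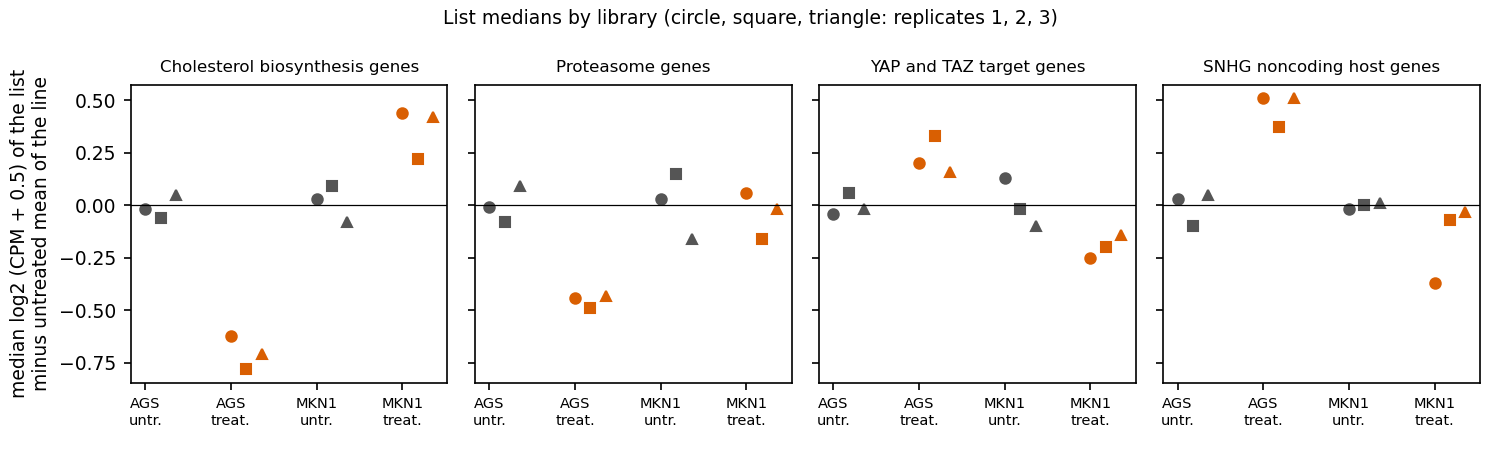
Median over the list of log2 (CPM + 0.5), minus the untreated mean of the line, in each library for 4 lists. Treated cholesterol medians lie below the untreated ones in AGS and above them in MKN1, YAP and TAZ medians do the reverse, and in MKN1 the proteasome medians overlap while 2 of the 3 treated SNHG medians (−0.07 and −0.03) lie close to the untreated ones.

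The level of a gene averaged over treated and untreated libraries was not used by the rule, and the difference in this level between lines was tested by edgeR's quasi-likelihood test. It passed in 75.6% of all tested genes (39.9% higher in MKN1, 35.7% higher in AGS), in 104 of the 139 genes (74.8%) and in 137 of the 163 (84.0%). The 139 had the higher level in AGS in 62 and in MKN1 in 42, the 163 in 79 and 58. TGM2 had no detectable difference in average level, with 0.03 (SE 0.10, adjusted p = 0.817 by edgeR's quasi-likelihood test), and ABCA13 −0.12 (SE 0.14, adjusted p = 0.423). ANKRD1 was lower in MKN1 by −3.09 (SE 0.33, adjusted p = 1.53e-06 by the same edgeR test), and SQLE by −0.70 (SE 0.11, adjusted p = 6.74e-05). GDF11 was higher in MKN1 by 2.84 (SE 0.13, adjusted p = 3.09e-10 by the same edgeR test). As a description, the order of the lines was reversed by treatment in 85 of the 139 and in 79 of the 163, and the lines were closer after treatment than before in 83 and 69. Both sets were chosen by opposed changes, which makes a reversal more likely, and no share over all genes is given here.

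Features that the rule did not use are given for both the larger sets past the threshold for the difference and the smaller sets called in both lines, without a test. Median GC content of the transcripts was 53.6% in the 1515 genes with AGS lower, 48.9% in the 1316 with AGS higher and 48.5% in all genes. In the smaller sets called in both lines it was 51.5% in the 139 and 52.5% in the 163, so the contrast between directions was not kept. Across 15337 genes of at least 1 CPM on average, GC content correlated with the AGS change (Spearman −0.32) and less with the MKN1 change (−0.15), a description over genes that share libraries. With GC and length trends removed, the 302 became 495, of which 260 were among the 302. Chromosome 19 held 11.1% of the 1515, 5.02% of the 1316 and 7.08% of all genes, but 2.88% of the 139 and 6.75% of the 163. Protein-coding genes made up 77.0% of the 1515, 79.0% of the 1316 and 73.8% of all genes, and 67.6% of the 139 and 91.4% of the 163. Antisense genes, whose counts are uncertain without strand, made up 6.6% of the 1515, 3.8% of the 1316 and 6.83% of all genes, and 10.1% of the 139 and 3.07% of the 163. The mean level was also lower in the 139 (median 7.54 CPM) than in the 163 (23.6 CPM).

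Promoter motif shares were within 3 percentage points of all tested genes in the sets past the threshold for the difference. In the order AGS lower, AGS higher and all genes, CCAAT was in 35.5%, 33.8% and 34.6% of windows, GGGCGG (Sp1) in 65.0%, 65.8% and 63.4%, and CATTCC in 8.63%, 8.55% and 9.73%. TGANTCA (AP-1) was in 4.91%, 3.08% and 4.48%, and CCGGAAG (ETS) in 11.6%, 14.3% and 14.1%. Shares for TGACGTCA (CRE), the NF-kB motif, CACGTG (E-box) and TATAAA (the core promoter box) were each within 1 percentage point of all genes, and the p53 and heat shock elements were in under 1% of windows. Motifs were searched on both strands of 250 bases and could overlap each other, and 997, 877 and 13011 windows were found. The 139 and 163 genes, with 87 and 126 windows, lay further off for some motifs: ETS was in 8.05% of the former and 10.3% of the latter, TATAAA in 10.3% and 5.56%, and NF-kB in 4.6% and 10.3%.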

How the data were processed

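TRIzol and the NEBNext Ultra kit, which does not mark strand, were used for RNA and libraries, per the labels' protocols, so antisense and overlapping genes are uncertain. Reads were aligned with HISAT2 2.0.4 to hg38/GRCh38, per the submitters' processing notes, with the counter and its annotation not given in the sources used here. Counts of reads per gene were deposited by the authors without normalization. Symbols (32069 of 32269 identifiers) came from a gene name table, and positions and exon overlap from GENCODE 29. The filter filterByExpr left 20280 genes, and signs were taken only for these. One model of 4 group means was fitted over 12 libraries with edgeR 4.0.16 in R 4.3.3 (TMM scaling, quasi-likelihood F tests, Benjamini-Hochberg adjustment over all genes tested, threshold 0.05, 8 residual and 4.91 prior degrees of freedom). The contrasts were treatment in each line, their difference and the average level between lines. Each SE is the absolute log2 change divided by the square root of its F value. It rests on a spread shared by the lines, so it does not show that MKN1 replicates differed more than those of AGS. CPM use TMM library sizes, and 3 counts stand for 0.0581 to 0.105 CPM in a library, which covers counting error only.

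Members and the 42 gene lists were chosen with earlier results of these data known, so no count over them is independent evidence. Named genes passed in both lines and for the difference, with at least 5 CPM in a group of each line and no overlap of libraries, ranked by the smaller change, 12 per direction. Up to 2 per list by the same ranking, TGM2 and the PP2A and PP1 catalytic genes were added. An SREBP motif was also tried after the sterol values were seen and dropped as too rare to describe. The filter on ordinary symbols was corrected to the written rule after a first listing had been seen, which brought in TSPOAP1, ZSCAN12P1 and ERMP1. Other list members were named after their values were seen, as were the lists described gene by gene and the 4 promoters printed. In simulated data, 42% of genes opposed by 0.5 and 95% of genes opposed by 1 in each line were called for the difference, with 8 false calls among 19929 genes tested. The simulation gave each gene the same spread in both lines, whereas replicates of MKN1 differed more than those of AGS. It also opposed only genes of at least 5 CPM in each line. These shares and the false calls therefore need not hold for the measured libraries. Nothing in the labels says that the replicates came from separate cultures beyond the word biological, so the p-values measure the spread between these libraries. The 22 alternatives were other scaling factors, DESeq2 1.42.0, limma 3.58.1 (voom), 2 filters, a block for the replicate number, each line alone, GC and length trends removed, and each library left out. A few genes are counted in the lists but not reported here.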

Additional observations from a re-analysis of the deposited data

Results flagged for a closer look

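Each value below is the log2 change in MKN1 minus that in AGS of a named gene, picked out because the test of the difference between the lines passed its threshold. The rule for named genes asked for this, so the values restate the choice of genes and add no evidence; the explanation of these differences was not tested. Among the genes that passed in both lines with AGS lower, the values were 3.68 for HYAL3, 6.39 for TSPOAP1, 3.88 for TMEM217, 2.65 for ABCA13, 2.59 for ZSCAN12P1 and 2.09 for GDF11. In the same direction they were 1.86 for PRDM11, 1.81 for BIK, 2.36 for PPP1R10 and 1.78 for GLCCI1. For lipid synthesis they were 1.98 for SQLE, 2.44 for DHCR7, 1.75 for FASN and 0.92 for ELOVL1. Among the genes with AGS higher in both-line calls they were −4.50 for ANKRD1, −3.21 for TGM2, −2.68 for CACNG6, −2.62 for MTMR11, −2.42 for SAT1 and −2.41 for SECTM1. For the rest of that set they were −1.95 for RECK, −2.20 for ASIC1, −1.99 for ERMP1, −2.02 for PCYOX1L, −1.88 for PAQR8 and −2.06 for SMIM14. Immediate early, ERK feedback and p53 target genes had 2.04 for EGR2, 1.35 for BTG2, 1.53 for DUSP8, 1.51 for DUSP10 and 1.17 for TP53I3. Stress response genes had 2.45 for DDIT3, 2.16 for SESN2, 0.88 for DNAJB2, 0.48 for PDIA6, 1.21 for HSPB8 and 1.15 for FKBP4. Redox, apoptosis, lysosome and zinc genes had −2.43 for ABCC3, 2.10 for OSGIN1, 1.13 for HTRA2, −1.31 for WIPI1, 0.70 for TFE3, −1.37 for SLC39A10 and −2.00 for MT1X. Inflammatory, interferon and antigen presentation genes had 0.89 for NFKBIE, −1.39 for TNFAIP2, −1.83 for IFITM2, −2.12 for DDX60, −1.55 for ERAP2, −1.18 for ERAP1 and −1.66 for CD68. Metabolic and mitochondrial genes had −1.21 for SLC2A3, 1.24 for PKM, −0.47 for NDUFS1, 0.69 for NDUFB10, −0.55 for MT-ND4L, 1.80 for SLC1A5 and −1.29 for SLC43A1. Genes of protein synthesis and turnover had 0.63 for PES1, 0.62 for TCOF1, 0.72 for VARS1, 0.55 for HARS1, 0.80 for PSMD2 and 0.86 for PSMA7. Adhesion, matrix and protease genes had −2.16 for F3, −3.97 for COL3A1, −2.89 for COL4A1, −2.01 for ITGA2, −3.32 for TIMP3, −0.85 for CGN and −1.11 for CLDN1. Lineage, keratin and mesenchymal genes had 1.09 for ZEB1, −3.63 for TFF1, 1.66 for GATA4, −1.86 for KRT23, 1.11 for KRT19, −1.87 for NOTUM and 1.55 for EPHB3. Cytoskeleton, cell cycle and splicing genes had −0.65 for TPM4, 1.02 for TAGLN2, −1.07 for HMMR, −1.03 for TUBA1A, −0.85 for TUBB, −1.53 for CLK2 and −0.68 for CLK3. Receptor, phosphatase, histone and noncoding genes had −1.07 for EGFR, −1.18 for BTC, 1.13 for PPP2R5B, −1.19 for PPP1R12B, 0.46 for PPP1CC, −1.77 for H2AC13, −1.06 for SNHG20 and −1.35 for GAS5. The transglutaminase TGM4 had 2.81. In COL3A1, TIMP3, H2AC13 and TGM4 at least 1 group lay below 1 CPM in all its libraries, so those differences rest on few counts. Exon bases are shared with another gene model over 85.8% of CD68 and 39.6% of DDIT3.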

How the results depend on the processing

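MKN1 calls and the genes called in both lines depended most on the analysis. Against 1358 MKN1 calls and 302 opposed pairs of calls (139 with AGS lower, 163 with AGS higher), DESeq2's test gave 2424 and 533 (232 and 301), no filter 809 and 164 (66 and 98), and removal of GC and length trends 495 opposed pairs (235 and 260). With each line fitted alone there were 8318 AGS and 30 MKN1 calls and 11 opposed pairs (2 and 9). Genes with opposite signs were 16934 with no filter and 6436 with a filter of 5 CPM in 3 libraries, because other numbers of genes were tested; the cause of the other shifts was not tested. Leaving out 1 library at a time gave 2098 to 4643 calls of the difference, 1001 to 2172 with AGS lower and opposite signs and 916 to 1805 with AGS higher. It gave 2051 to 5533 AGS calls, 336 to 3160 MKN1 calls and 104 to 633 opposed pairs (42 to 341 and 62 to 292). The extremes for MKN1 came without MKN1 untreated replicate 2 and replicate 3. Same-numbered deviations from the group means correlated at −0.001, 0.048 and −0.054 in AGS and 0.131, −0.078 and 0.215 in MKN1. Differently numbered ones ran from −0.096 to 0.104 in AGS and from −0.256 to 0.158 in MKN1. With 3 libraries per group, these values cannot decide whether the replicate number pairs the samples. With the replicate block there were 3235 calls of the difference and 291 opposed pairs (127 and 164), of which 193 were among the 302. For named genes the difference kept its direction and side of the threshold in 1830 comparisons with alternatives, was weaker in 231, stronger in 5 and reversed in 9. The reversals were PPP2CA (−0.03 as reported, 0.04 with library totals, 0.10 with GC and length trends removed, −0.16 to 0.05 with a library left out, reversed in 3 of 12) and PPP2CB (0.02 as reported, −0.09 to 0.09 with a library left out, reversed in 4 of 12), both near 0. Line level calls (15328) were 15021 to 15797 with a library left out, 11881 with the replicate block, 10368 with the filter of 5 CPM and 16645 with no filter.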
